A study of Homo sapiens with 4 samples.

Results

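The 10 genes described here are SCD and the other listed genes of fatty acid synthesis, elongation and desaturation: FASN, ACACA, ACLY, ACSS2, ELOVL5, ELOVL6, FADS1, FADS2 and ACSL3. They were chosen by gene symbol for their place in the pathway, with earlier results of these data known, out of 26364 gene symbols in a table of read counts. All 10 had a row, and all 10 were among the 14024 genes tested, which had at least 10 counts in at least 2 libraries. RNA was sequenced from SW480 and SW620, both established human colorectal cancer cell lines, with 1 SHMT2 knockdown library and 1 control library in each line. SHMT2 is the mitochondrial enzyme that splits serine into glycine and a one-carbon unit. In the study's knockdown system, doxycycline switches on an shRNA against SHMT2, so the knockdown rests on an inducible hairpin carried by these lines. The controls are named only as control in the sample labels and as control shRNA cells in the study, and the hairpin sequenced and the use of doxycycline in the controls are not given in the sources used here.

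Cells build fatty acids from acetyl-CoA in the cytosol. ACLY makes acetyl-CoA from exported citrate and ACSS2 makes it from acetate, ACACA carboxylates it to malonyl-CoA, and FASN joins these units into palmitate. Elongases such as ELOVL6 and ELOVL5 then lengthen the chain, SCD places the first double bond in saturated chains to give monounsaturated fatty acids, FADS1 and FADS2 desaturate polyunsaturated chains, and ACSL3 activates free fatty acids to acyl-CoA for lipid assembly. Many of these genes are known targets of SREBP transcription factors, which act together with NF-Y at promoters that carry CCAAT boxes, and INSIG proteins hold SREBPs in the endoplasmic reticulum when sterols are plentiful.

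Promoter sequence is shown for SCD and FADS1, which were lower after SHMT2 knockdown by the test given below, and for ACLY, which did not pass it. RefSeq's table on GRCh38.p14 held 14 promoter windows for 9 of the 10 genes (not for FASN), each 300 bases long with 250 bases before the start site and 50 from it. Each sequence reads 5′ to 3′ on the strand of its gene, and capitals mark CCAAT on either strand (ATTGG where it lies on the other strand). The windows lie at chr10:100346983-100347282 on the + strand for SCD, at chr11:61816954-61817253 on the - strand for FADS1, and at chr17:41918973-41919272 on the - strand for ACLY.
SCD promoter: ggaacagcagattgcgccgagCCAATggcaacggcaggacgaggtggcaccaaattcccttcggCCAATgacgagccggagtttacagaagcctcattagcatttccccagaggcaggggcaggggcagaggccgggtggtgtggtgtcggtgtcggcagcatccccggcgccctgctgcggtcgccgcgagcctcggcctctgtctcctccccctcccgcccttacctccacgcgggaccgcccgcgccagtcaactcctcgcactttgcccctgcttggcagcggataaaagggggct
FADS1 promoter: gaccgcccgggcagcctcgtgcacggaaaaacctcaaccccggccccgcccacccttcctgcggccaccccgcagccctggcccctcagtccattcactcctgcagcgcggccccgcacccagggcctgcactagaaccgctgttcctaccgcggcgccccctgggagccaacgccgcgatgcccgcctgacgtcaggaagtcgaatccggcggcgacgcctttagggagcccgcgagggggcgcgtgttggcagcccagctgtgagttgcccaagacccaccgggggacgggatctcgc
ACLY promoter: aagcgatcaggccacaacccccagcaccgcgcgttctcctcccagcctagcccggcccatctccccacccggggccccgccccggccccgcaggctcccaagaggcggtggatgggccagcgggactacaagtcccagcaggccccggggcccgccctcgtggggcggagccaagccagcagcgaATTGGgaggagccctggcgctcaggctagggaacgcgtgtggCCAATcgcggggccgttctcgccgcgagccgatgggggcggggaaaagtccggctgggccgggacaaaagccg
The SCD window held CCAAT boxes beginning 229 and 186 bases before the start site, and the ACLY window held boxes 65 and 23 bases before it. The FADS1 window held none. Of the 9 genes with a window, 7 had a CCAAT box in at least 1 of their windows. By window, 9 of 14 (64.3%) had it, against 34.6% of all 35116 windows in the table. The ACLY windows lie 71 bases apart, so that both hold the same boxes. The sterol response core TCACCCCA was found in no window of these genes and in 1.54% of all windows. The GC box GGGCGG was found in 11 of the 14 windows, against 45% of all windows, and the E-box CACGTG in 1 of the 14, that of ELOVL5, against 7.26% of all windows. Each motif was searched on both strands, none of these matches shows binding, and a window without a match says only that these letters are not in it.

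The targeted gene was examined first. In SW480, SHMT2 counts were 2661 in the control and 205 in the knockdown library, and in SW620 they were 3751 and 640. In CPM, a count brought to a common library total and scaled by the trimmed mean of M values (TMM), the knockdown level was 11.2% of that of the control for SW480 and 6.92% for SW620, so the labels and the targeted gene went together. The libraries held 5530129 to 13774288 counts. The ratio of knockdown depth to control depth was 0.671 for SW480 and 2.49 for SW620. The epithelial markers EPCAM, CDH1, KRT8, KRT18 and KRT19 had 557 or more counts in every library. CDX1 had 0 counts in all 4 libraries, KRT20, LGALS4 and GPA33 had at most 15, and VIL1 had at most 2 counts in SW480 libraries but 2029 and 5105 in SW620 libraries. Of the 8 epithelial markers tested, KRT8 and KRT18 were lower (log2 fold change -0.34 each) and CDH1 was higher (0.45) in the knockdown, and their part in the results was not tested. Summed levels of blood and immune markers were 0.452 to 1.28 CPM, and those of adipocyte markers were 0.297 to 0.917 CPM, with ADIPOQ and LEP at 0 in every library. Fibroblast and stroma markers summed to 20.4 to 30.4 CPM, mainly COL1A1 in SW480 libraries (203 and 130 counts) and LUM in SW620 libraries (107 and 313 counts). Hepatocyte markers summed to 34.9 and 44.9 CPM in SW620 libraries, mainly SERPINA1, and to at most 3.92 CPM in SW480 libraries.

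Whether SHMT2 knockdown changed the fatty acid synthesis genes was asked with edgeR's quasi-likelihood test over both cell lines, with the cell line as a term and Benjamini-Hochberg adjustment over all 14024 genes. SCD, FASN and FADS1 were lower in the knockdown (adjusted p under 0.05), and 0 of the 10 genes were higher, also at an unadjusted p of 0.05 or less and by DESeq2, which gave 3 of them no adjusted p. These 3 of 10 compare with 1.17% of all tested genes called lower and 0.492% called higher. SCD was known to be lower when the genes were chosen, and the study lists FADS1, but not SCD or FASN, among its downregulated genes. The part of SCD and FADS1 in this count is thus no independent support. Without adjustment 5 of the 10 were lower (p of 0.05 or less), against 4.91% of all tested genes, since FADS2 and ACSL3 also came under that limit. In 8 of the 10 genes the level was lower in the knockdown library of both cell lines, which held for 24.7% of all tested genes. Their median on the log2 scale was -0.27, against 0.01 for all tested genes. Taken by line, it was -0.27 for SW480 and -0.14 for SW620. With 1 library per line and condition, the lines are the only replicates (n = 2), the model leaves 1 residual degree of freedom, and each p rests on a spread shared across genes. In bulk RNA, fewer cells that express a gene and less RNA per cell cannot be told apart.

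**Figure D1:**
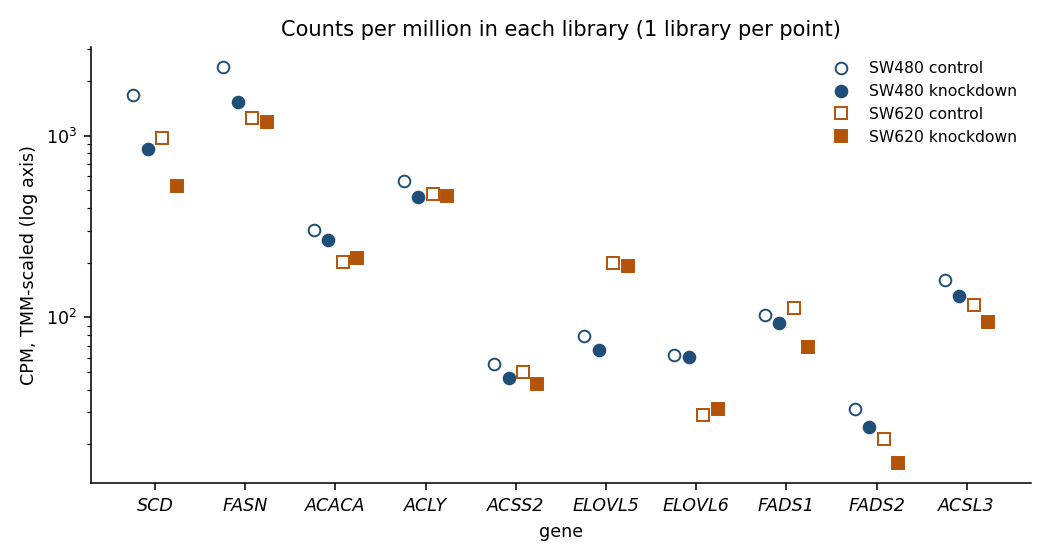
Level of each of the 10 genes in the 4 libraries, in TMM-scaled CPM on a log axis, with open symbols for control and filled symbols for SHMT2 knockdown, circles for SW480 and squares for SW620; each point is 1 library. SCD fell from 1673 to 846 CPM in SW480 and from 966 to 531 CPM in SW620, while ELOVL6 lay near 61 CPM in both SW480 libraries and near 30 CPM in both SW620 libraries.

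SCD, the desaturase that makes oleate and palmitoleate, showed the largest fold change of the group. It had 16072 counts in control and 5606 in knockdown SW480 cells, and 5268 in control and 7146 in knockdown SW620 cells. The higher count of the SW620 knockdown library goes with its greater depth. The scaled levels were 1673 and 846 CPM in SW480 and 966 and 531 CPM in SW620, so that both control libraries lay above both knockdown libraries. The log2 fold change was -0.98 (counting SE 0.022) in SW480 and -0.86 (counting SE 0.026) in SW620. These SEs cover counting error only. The fit over both lines gave -0.92 ± 0.09 (SE, edgeR adjusted p = 1.59e-19), which puts SCD in the knockdown at 52.7% of control (95% interval 46.4 to 59.8%). By p it ranked 5 among all tested genes, and by size of fall it ranked 92. Of 7 other settings, the call was lost only where the cell line was left out of the model (log2 fold change -0.94, adjusted p = 0.999974).

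SCD lies at chr10:100347124-100364834 on the + strand (GENCODE 29, GRCh38, which is not the hg18 build named in the submitters' processing notes) and has 6 exons in its transcript of 5362 bases. Of the 50-base windows of that transcript, 4.42% (235 of 5313) also occur in another annotated gene, against 0 to 0.562% for the other 9 genes. Of these, 121 occur in the long intergenic RNA AC126365.1 and 114 in the processed pseudogene SCDP1. SCDP1, not analysed here, carries both of the sequences that the study lists as its SCD primers, shown because they mark coding sequence that SCD shares with this copy.
SCD forward primer: tctagctcctataccaccacca
SCD reverse primer: tcgtctccaacttatctcctcc
The forward primer matches bases 412 to 433 of the SCD transcript (chr10:100348067-100348088), and the reverse primer matches the other strand of bases 472 to 493 (chr10:100348127-100348148). Both lie in the coding part of exon 2. The study reports that its qPCR of SCD matched its expression profile. How the authors' counting treated reads that fit several of these genes is not given in the sources used here, so the SCD counts are uncertain to that extent.

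FADS1 (chr11:61799625-61829318, - strand) and FADS2 (chr11:61792980-61867354, + strand) encode the front-end desaturases of polyunsaturated fatty acid synthesis. FADS1 was at 103 CPM in control and 93.2 CPM in knockdown SW480 cells, and at 113 and 68.8 CPM in SW620 cells. Both controls lay above both knockdown libraries, but most of the fall was in SW620. The log2 fold change was -0.14 (counting SE 0.074) in SW480 and -0.71 (counting SE 0.075) in SW620, and the fit over both lines gave -0.43 ± 0.13 (SE, edgeR adjusted p = 0.0458), or 74.4% of control. This call was near the limit, and it was lost under each of the 7 other settings tried, with adjusted p values from 0.0623 with DESeq2's size factors to 0.999974 without the cell line.

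FADS2 was at 31.3 CPM in control and 25.0 CPM in knockdown SW480 cells, and at 21.3 and 15.7 CPM in SW620 cells. The knockdown library was the lower one in each line. The SW480 knockdown level was above the SW620 control level, but that comparison crosses the lines. FADS2 was lower in SW620 (edgeR log2 ratio of SW620 over SW480 -0.62). The fit gave a log2 fold change of -0.38 ± 0.18 (SE, unadjusted p = 0.0336, edgeR adjusted p = 0.466). FADS1 and FADS2 lie on opposite strands, with RefSeq start sites 801 and 600 bases apart, and share 490 exon bases in GENCODE 29. Whether strand was used in counting is not given in the sources used here, so reads in that overlap cannot be told apart.

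FASN (chr17:82078333-82098332, - strand), the multifunctional enzyme that assembles palmitate, was lower in SW480 by its values and close to its control in SW620. Its counts were 22909 in control and 10193 in knockdown SW480 cells, and 6800 in control and 16043 in knockdown SW620 cells. The scaled levels were 2385 and 1537 CPM in SW480 and 1247 and 1193 CPM in SW620. The SW480 knockdown library lay above the SW620 control library, a comparison that crosses the lines. The SW480 knockdown level was 64.5% of its control and the SW620 level 95.7%. The log2 fold changes were -0.63 (counting SE 0.017) in SW480 and -0.06 (counting SE 0.021) in SW620, a difference of 0.57 (counting SE 0.027) that could not be tested without replicates within a line. The fit over both lines gave -0.35 ± 0.09 (SE, edgeR adjusted p = 0.00836), or 78.5% of control. The call was lost under 5 of 7 other settings, among them the DESeq2 Wald test (adjusted p = 0.99972), scaling by total counts (0.12) and by the upper quartile (0.169), and a filter of 50 counts (0.301).

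ACACA (chr17:37084988-37406818, - strand), which supplies malonyl-CoA to FASN, did not pass the test. It was at 302 CPM in control and 267 CPM in knockdown SW480 cells, and at 202 and 212 CPM in SW620 cells. The level was thus lower in the SW480 knockdown library and slightly higher in the SW620 knockdown library, and the fit gave a log2 fold change of -0.06 ± 0.11 (SE, adjusted p = 0.978). The 95% interval of the knockdown level ran from 82.7 to 112% of control.

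The genes that supply acetyl-CoA did not pass the test either. ACLY (chr17:41866908-41930542, - strand) was at 562 CPM in control and 462 CPM in knockdown SW480 cells, and at 475 and 464 CPM in SW620 cells. Its knockdown libraries lay below both controls, narrowly in SW620, with a log2 fold change of -0.16 ± 0.10 (SE, adjusted p = 0.728). ACSS2 (chr20:34872146-34927962, + strand) was at 55.6 and 46.3 CPM in control and knockdown SW480 cells, and at 50.2 and 43.1 CPM in SW620 cells. Both of its controls exceeded both knockdown libraries, by a log2 fold change of -0.24 ± 0.14 over both lines (SE, adjusted p = 0.644). The intervals of the knockdown level, 78.1 to 103% of control for ACLY and 70.2 to 102% for ACSS2, include no change.

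The elongases did not pass the test. ELOVL6 (chr4:110045846-110199199, - strand), which extends palmitate to stearate, the substrate of SCD, was at 61.9 and 60.5 CPM in control and knockdown SW480 cells and at 29.2 and 31.4 CPM in SW620 cells. Its log2 fold change was 0.03 ± 0.14 (SE, adjusted p = 0.992), with a 95% interval of the knockdown level from 84.2 to 123% of control. ELOVL5 (chr6:53267398-53349179, - strand), which extends polyunsaturated chains, was at 78.8 and 65.9 CPM in control and knockdown SW480 cells and at 199 and 191 CPM in SW620 cells. The knockdown library was the lower one in each line, and the fit gave -0.15 ± 0.12 on the log2 scale (SE, adjusted p = 0.853).

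ACSL3 (chr2:222860934-222944639, + strand), an acyl-CoA synthetase of the endoplasmic reticulum and lipid droplets, was at 161 and 132 CPM in control and knockdown SW480 cells and at 117 and 94.0 CPM in SW620 cells. Its values by line were -0.29 (counting SE 0.061) in SW480 and -0.32 (counting SE 0.070) in SW620 on the log2 scale. The SW480 knockdown level was above the SW620 control level. That comparison crosses the lines, and ACSL3 was lower in SW620 (edgeR log2 ratio of SW620 over SW480 -0.47). The fit over both lines gave -0.30 ± 0.12 (SE, unadjusted p = 0.0117), and it missed the limit after adjustment (edgeR adjusted p = 0.270).

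**Figure D2:**
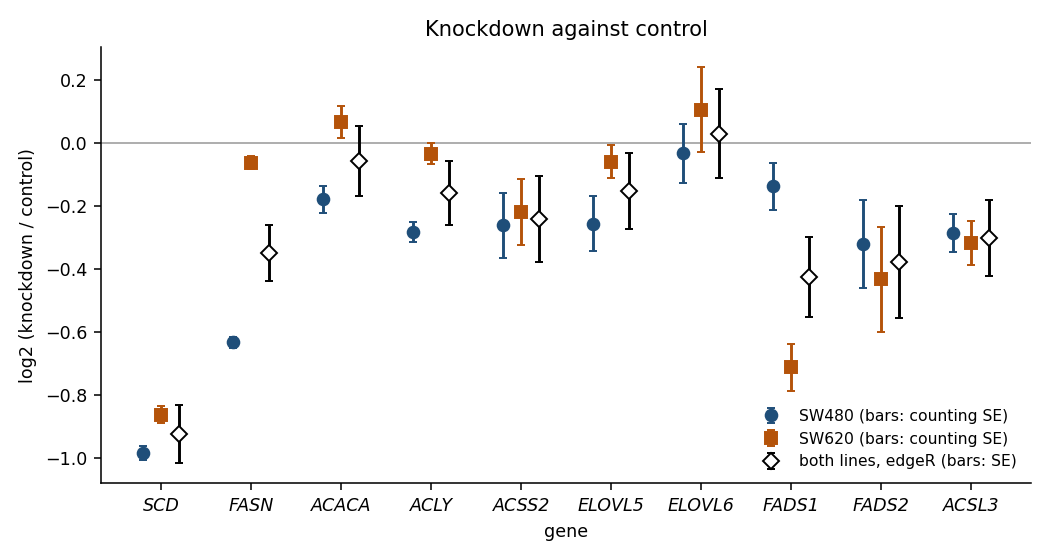
Log2 ratio of SHMT2 knockdown over control for each gene, with circles for SW480 and squares for SW620 (bars, SE from counting only) and open diamonds for the edgeR fit over both lines (bars, SE of the fit). SCD lies near -0.9 in both lines, FASN is lower in SW480 (-0.63) than in SW620 (-0.06), and FADS1 is lower in SW620 (-0.71) than in SW480 (-0.14).

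Summed, the 10 genes held 5414 CPM in control and 3535 CPM in knockdown SW480 cells, and 3420 CPM in control and 2844 CPM in knockdown SW620 cells. SCD and FASN made up most of this sum in each library. The count of SCD relative to FASN within a library, which does not depend on scaling between libraries, was 0.702 in control and 0.550 in knockdown SW480 cells, and 0.775 in control and 0.445 in knockdown SW620 cells. Relative to FASN, SCD was thus lower in the knockdown library of each line. Levels can be compared between genes only per length, and were computed as CPM per kilobase of the longest annotated transcript. On that scale SCD was the highest of the 10 in both controls, at 312 in SW480 and 180 in SW620, ahead of FASN at 278 and 146. In the knockdown libraries FASN was the highest, at 180 in SW480 and 139 in SW620, and SCD stood at 158 and 99.1. ACLY came next at 106 to 130, and FADS2 was the lowest in all 4 libraries at 3.09 to 6.18. With 1 library per point, the order of neighbours in these rankings has no replicate check, and SCD in knockdown SW620 cells ranked 3 by the longest transcript but 2 by the union of exons.

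**Figure D3:**
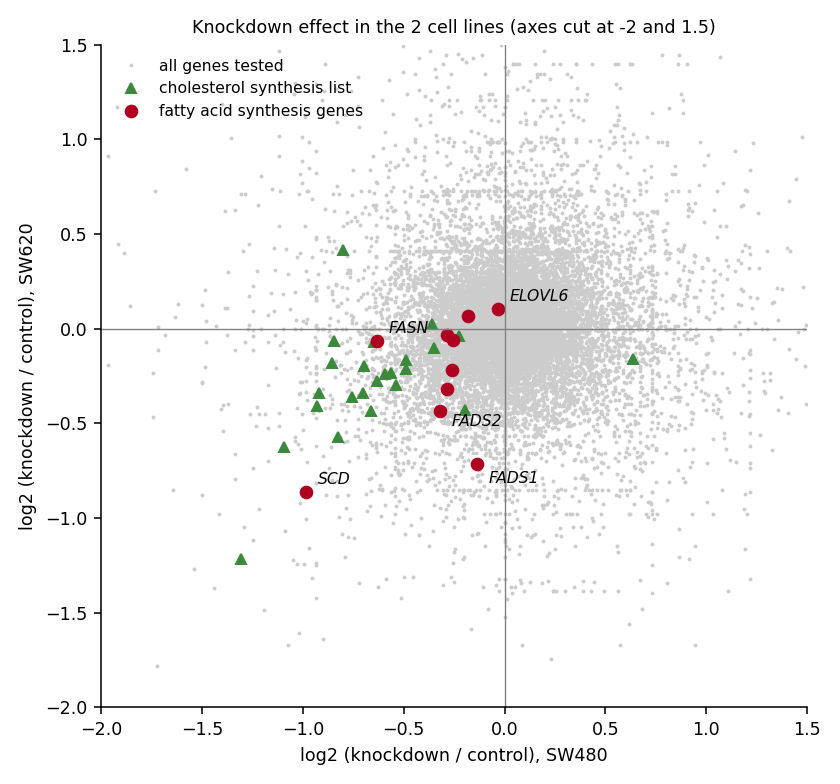
Log2 ratio of knockdown over control in SW480 (horizontal axis) and in SW620 (vertical axis), with each of the 14024 tested genes as a grey point, the 24 listed genes of cholesterol synthesis and its control as green triangles and the 10 fatty acid synthesis genes as red circles; genes beyond -2 or 1.5 fall outside the axes. Of the 10 genes, 8 lie below 0 in both lines, SCD farthest out, and the other 2, ACACA and ELOVL6, lie just above the horizontal line.

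The genes around this pathway were described from lists written by hand, with the same test and no set test. Of all tested genes, 1.17% were called lower and 0.492% higher by that test. In the list of lipogenic control genes (SREBPs, their escorts and partners), 1 of 20 tested genes was lower and 0 were higher, with a median log2 fold change of 0.00. That gene was INSIG1, which retains SREBPs in the endoplasmic reticulum and is itself an SREBP target. Its counts were 441 (control) and 122 (knockdown) for SW480 and 161 and 169 for SW620, which is 45.9, 18.4, 29.5 and 12.6 CPM. Both controls lay above both knockdown libraries, and the log2 fold change was -1.28 ± 0.17 (SE, edgeR adjusted p = 1.17e-10), while DESeq2 gave it no adjusted p. SREBF1, which encodes the SREBP that mainly drives fatty acid synthesis, did not pass the test, with 0.03 in SW480 and 0.01 in SW620 on the log2 scale and 0.02 ± 0.11 over both (SE, adjusted p = 0.993). SREBF2, which encodes the SREBP of cholesterol synthesis, stood at -0.14 ± 0.11 (SE, adjusted p = 0.868). These are transcript levels, and SREBP processing was not measured.

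The other genes of fatty acid metabolism gave few calls, as did all tested genes, and in lists this short that is no result about them. None of the 9 genes of substrate and cofactor supply, the 10 other genes of fatty acid synthesis, the 13 of elongation and desaturation or the 15 other acyl-CoA synthetases and carriers passed the edgeR test after adjustment, and their medians ran from -0.05 to 0.12. At an unadjusted p of 0.05 or less, 1, 0, 0 and 2 of them were lower, against 4.91% of all tested genes. At that limit 0, 1, 0 and 1 were higher. DESeq2 called 0 in each list but gave no adjusted p for 1, 9, 7 and 10 of their genes. SCD5, a second stearoyl-CoA desaturase, was at 47.5 and 50.7 CPM in control and knockdown SW480 cells and at 6.97 and 12.8 CPM in SW620 cells. Its log2 fold change was 0.34 ± 0.17 (SE, unadjusted p = 0.0449, adjusted p = 0.531), and per length its level was 15.3 against 312 for SCD in control SW480 cells. ACACB, the mitochondrial acetyl-CoA carboxylase, stood at 0.04 ± 0.20 (SE, adjusted p = 0.993).

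Among 27 genes of glycerolipid synthesis and storage, 2 were lower and 0 higher. They were AGPAT6, the glycerol-3-phosphate acyltransferase now called GPAT4, at -0.74 ± 0.13 (SE, edgeR adjusted p = 9.36e-06), and PCYT2, of phosphatidylethanolamine synthesis, at -0.45 ± 0.13 (SE, edgeR adjusted p = 0.0374). AGPAT6 was lower in SW480 (-0.67) and in SW620 (-0.79), while PCYT2 stood at -0.28 and -0.60, and its call was lost under 6 of 7 other settings. Among 27 genes of fatty acid oxidation, DECR1, which handles unsaturated chains, was higher at 0.56 ± 0.16 (SE, edgeR adjusted p = 0.0310), by 0.90 in SW480 and 0.18 in SW620, a call lost under 5 other settings. CPT1A, which admits fatty acids to mitochondria, stood at 0.29 ± 0.11 (SE, adjusted p = 0.257), with 0.06 in SW480 and 0.51 in SW620.

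Cholesterol synthesis and LXR-regulated genes were set beside the fatty acid genes as the nearest related pathways. Of 24 genes of cholesterol synthesis and its control, 11 were lower and 0 higher, with a median of -0.44, against 3 of 10 and -0.27 for the fatty acid genes. INSIG1 belongs to this list too, and IDI1 (-0.87 ± 0.14, edgeR adjusted p = 1.17e-06), FDFT1 (-0.62 ± 0.12, 4.09e-05) and HMGCS1 (-0.70 ± 0.14, 9.00e-05) had the next smallest p values in it. DESeq2 called 0 of the 24, with no adjusted p for 12 of them, and FDFT1 stood at an adjusted p of 0.296 by that test. By line, FDFT1 was at -0.92 in SW480 and -0.34 in SW620. As for the 10 genes, the median was further from 0 in SW480 (-0.66) than in SW620 (-0.24). Of 14 LXR-regulated lipid genes tested, 0 were lower and 2 were higher. These were the cholesterol exporters ABCA1 (1.68 ± 0.36, edgeR adjusted p = 0.000551) and ABCG1 (1.68 ± 0.42, 0.00730), both from low counts and without an adjusted p by DESeq2. ABCG1 stood at 0.86 in SW480 and 1.84 in SW620, and lost its call with upper-quartile scaling (adjusted p = 0.0502). SCD and FASN, known as targets of LXR as well as of SREBP, are not in this list. The lists were not tested against each other.

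**Figure D4:**
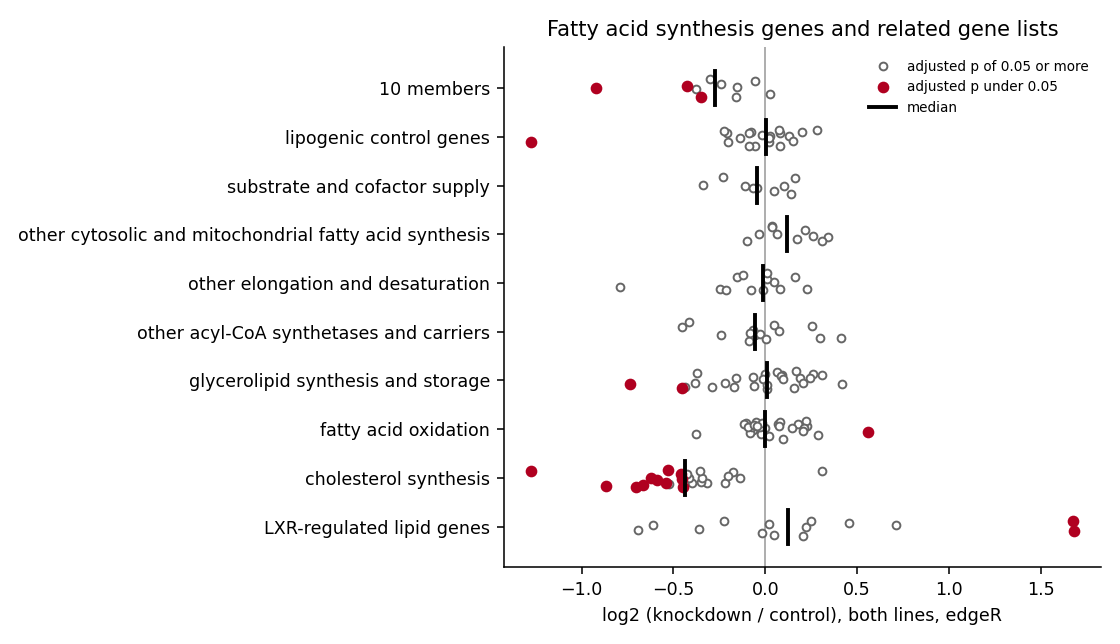
Log2 ratio of knockdown over control from the edgeR fit over both lines, with 1 point per tested gene, by list; filled points passed the test (adjusted p under 0.05) and the vertical bar is the median of the list. The medians of the 10 genes (-0.27) and of cholesterol synthesis (-0.44) lie below 0, and the other lists have medians from -0.05 to 0.13.

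The genes most like SCD over the 4 libraries were sought among 8266 tested genes with a mean of at least 20 CPM, by the Euclidean distance of centred log2 CPM. The 5 nearest were CHMP2B (distance 0.241), CERS6-AS1 (0.262), ZRANB1 (0.299), DERL1 (0.314) and PAFAH1B2 (0.318). Their log2 fold changes in the knockdown ran from -0.66 to -0.92, which describes them without a test, since they were chosen for a profile like that of SCD in the same libraries. CERS6-AS1 overlaps CERS6 on the other strand, and CERS6, named after its values were seen, stood at -0.997. That value is no support, since CERS6 was reached through a gene chosen for its likeness to SCD. Of the fatty acid genes, FADS2 was nearest to SCD at rank 39, followed by FASN at 52, ACSL3 at 87 and FADS1 at 364. ACACA, ACSS2, ACLY and ELOVL6 ranked 654 to 1226, and ELOVL5 ranked 7562. The 5 nearest were the same with a prior count of 0.5, but 0 of them remained when each gene was scaled to unit variance.

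FADS2, a member described above, lies beside FADS1 and did not pass the test. Of the other genes next to the called ones on their chromosomes, the 4 that could be tested did not pass either. DUS1L and CCDC57, on either side of FASN, stood at 0.03 ± 0.12 and 0.26 ± 0.15 on the log2 scale (SE, edgeR adjusted p = 0.991 and 0.681). FEN1, beside FADS1, stood at -0.26 ± 0.12 (SE, adjusted p = 0.417). WNT8B, beside SCD, had at most 27 counts in any library and stood at 0.01 ± 0.60 (SE, adjusted p = 0.999719), and PKD2L1, on the other side, had at most 2 counts and was not tested.

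The levels were also compared between the cell lines. In the same edgeR fit, 6 of the 10 genes were lower and 1 was higher in SW620 than in SW480, against 31.3% and 32.3% of all tested genes, so that the number differing in either direction was near that of genes at large. The median log2 ratio of SW620 over SW480 was -0.46 for the 10 genes and 0.01 for all tested genes. ELOVL5 was the gene that was higher, with 199 and 191 CPM in the SW620 libraries against 78.8 and 65.9 CPM in the SW480 libraries, a 2.71-fold difference (log2 1.44 ± 0.12, adjusted p = 1.16e-30). ELOVL6 went the other way by 2.02-fold (-1.01 ± 0.14, adjusted p = 3.95e-12). The elongases thus lay on opposite sides, and neither overlapped between the lines, a point not counted over all tested genes.

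SCD and FASN were lower in SW620 as well, by -0.73 ± 0.09 (edgeR adjusted p = 2.53e-14) and -0.65 ± 0.09 (adjusted p = 1.45e-12) on the log2 scale. For SCD the lines overlapped, since its SW620 control level of 966 CPM was above its SW480 knockdown level of 846 CPM, whereas both FASN levels of SW620 were below both of SW480. Between control libraries FASN differed by -0.94 and between knockdown libraries by -0.37. FADS2 (-0.62 ± 0.18, adjusted p = 0.00109), ACSL3 (-0.47 ± 0.12, adjusted p = 0.000211) and ACACA (-0.46 ± 0.11, adjusted p = 8.74e-05) were also lower in SW620, with no overlap between the lines. The share of all tested genes without overlap, between the lines or between control and knockdown, was not computed. A lack of overlap is thus no result about these genes. ACLY (-0.12 ± 0.10, adjusted p = 0.302), ACSS2 (-0.12 ± 0.14, 0.437) and FADS1 (-0.15 ± 0.13, 0.301) did not pass the test, and FADS1 was higher in SW620 between control libraries (0.14) and lower between knockdown libraries (-0.44). The labels do not say how many cultures the libraries came from, so a difference between the lines cannot be told apart from a difference between cultures.

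**Figure D5:**
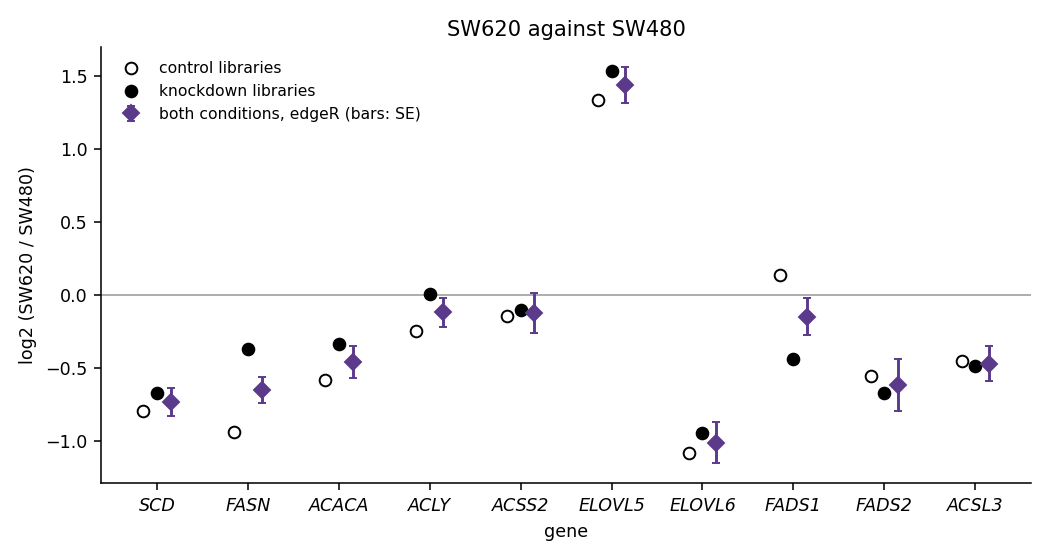
Log2 ratio of SW620 over SW480 for each gene, with open circles for the control libraries, filled circles for the knockdown libraries and diamonds for the edgeR fit over both conditions (bars, SE). Among the diamonds, ELOVL5 stands alone above 0 at 1.44 and ELOVL6 is lowest at -1.01. Among the circles, FADS1 in the control libraries (0.14) and ACLY in the knockdown libraries (0.0054) also lie above 0. FASN and FADS1 show the widest gaps between conditions.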

How the data were processed

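The RNA libraries, 1 knockdown and 1 control for each of SW480 and SW620, were Illumina TruSeq libraries per the labels. The study names a microarray in its methods, and RNA-seq in its results and its data statement. The authors deposited raw read counts per gene symbol, whole numbers without normalization. The submitters' processing notes name Bowtie 0.12.2 and hg18. The counting program, annotation and use of strand are not given in the sources used here. In 28 rows symbols had become dates (0.217% of counts), and these rows were kept.

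The depth was 5530129 to 13774288 counts per library, and SEs for a single line reflect counting alone. The filter kept genes that reached 10 counts in 2 or more libraries. TMM scaling and the test were run in edgeR 4.0.16 (R 4.3.3, quasi-likelihood test, two-sided, terms for cell line and treatment, Benjamini-Hochberg adjustment). The study states no model. The cell line pairs the libraries, as the labels give it. After subtraction of condition means, the SW480 libraries correlated at 0.961 over genes, which are not independent replicates. Log2 ratios for a single line had a prior count of 2 added and have no test. Levels per length, positions and shared sequence came from GENCODE 29 (GRCh38), and promoters and neighbours from RefSeq. No coordinate is from the files. No sample was left out. The scripts were tested on simulated data.

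Alternatives were DESeq2 1.42.0 (Wald test), its size factors, upper-quartile and total-count scaling, other filters, a fit without the cell line, and each line left out. Named genes were SHMT2, the 10 members, the genes of each list at adjusted p under 0.05 (at most 4 per direction, smallest p first), SREBF1, SREBF2, INSIG1, SCD5, ACACB and CPT1A, the neighbours of called members and the 5 genes most like SCD. CERS6 lies outside this rule and was named after its values were seen. The members and lists were chosen with earlier results of these data known. The labels do not say that libraries come from separate cultures, so p values cover only these libraries. They and the SEs of the fit rest mainly on a spread shared across genes. They do not measure how far the 2 lines differ for a given gene. FASN, for example, stood at -0.63 in SW480 and -0.06 in SW620, with an SE of the fit of 0.09.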

Additional observations from a re-analysis of the deposited data

Results flagged for a closer look

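Among the members, the named list genes, the tested neighbours of called members, the genes most like SCD and the cell type markers, those with at least 10 counts in both controls were compared between the lines. Of these, 7 moved in opposite directions in the lines by their values, with 1 library per line and condition, and these differences were not tested. The share of all tested genes that did so was not computed, so the number is no result about these genes. Many of the genes compared were named for a call over both lines or for likeness to SCD, which favours the same direction in both. The SW620 minus SW480 difference of the log2 ratio of knockdown over control was 0.25 for ACACA, 0.14 for ELOVL6, -0.59 for ACACB, -0.12 for DUS1L, -0.14 for EPCAM, 0.33 for KRT19 and -0.47 for SERPINA1. The counting SE of the difference was 0.067 for ACACA and 0.16 for ELOVL6, so the ELOVL6 difference was within its counting error. ACACB rests on 113 to 234 counts per library.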

How the results depend on the processing

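No called difference of a member changed direction. The fit with the cell line as replicate block called 164 genes lower, 69 higher and 3 of the 10 members lower. Without the replicate block, 0 genes were lower, 0 were higher and 0 members were lower by edgeR (17, 1 and 0 before adjustment, at p of 0.05 or less), with log2 fold changes of -0.94 for SCD, -0.41 for FASN and -0.41 for FADS1 (adjusted p = 0.999974 for each). The DESeq2 Wald test called 21 genes lower, 5 higher and 1 member lower, SCD (adjusted p = 1.79e-15), with FASN at -0.34 and FADS1 at -0.42. A filter of 50 counts gave 54, 15 and 1 (FASN -0.35, FADS1 -0.42), upper-quartile scaling 86, 32 and 1 (FASN -0.34, FADS1 -0.41) and scaling by total counts 88, 37 and 1 (FASN -0.34, FADS1 -0.41). With no filter FADS1 stood at -0.44 (adjusted p = 0.104), and with DESeq2's size factors at -0.42 (adjusted p = 0.0623). Between the lines, SCD stood at -0.75 (adjusted p = 0.0523) with treatment left out of the model, and FADS2 at -0.64 (adjusted p = 0.107) by DESeq2. The cause of these losses was not tested.

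Leaving out 1 cell line leaves a value with no test. The knockdown effect then ranged from -0.63 to -0.064 for FASN, from -0.71 to -0.14 for FADS1, from -0.18 to 0.067 for ACACA and from -0.28 to -0.035 for ACLY, while SCD ranged from -0.98 to -0.86. With the libraries of 1 condition, the line difference ranged from -0.94 to -0.37 for FASN, from -0.58 to -0.33 for ACACA, from -0.24 to 0.0054 for ACLY and from -0.44 to 0.14 for FADS1. The median of all tested genes lay between 0.01 and 0.02 under each scaling. DESeq2 gave no adjusted p for 3 of the 10 members and 13 of 24 tested named genes beside the members. FADS2, the least abundant member, had 116 counts in its shallowest library. Its counting SEs, each for a single line, were 0.14 in SW480 and 0.17 in SW620. The SE of its fit, which covers both lines and is not the same measure, was 0.18.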
